A study of Mus musculus with 6 samples.

Results

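The comparison described here set the EL4 clone C5 against the EL4 clone WT2. It rested on the 2 C5 arrays and the 2 WT2 arrays, 4 of the 6 arrays of the series, and on 27022 of 45037 non-control probe sets, those bright enough to be tested. EL4 is a mouse T cell lymphoma line, and each clone had been derived from it. WT2 was labelled sensitive to PMA, a phorbol ester, and as non-adherent to plastic and non-metastatic. C5 was labelled resistant to PMA, adherent and highly metastatic. A further clone, V7 (PMA-resistant, adherent, metastatic), shared the estimate of the spread and is shown beside C5 where it matters. All cells had spent a night without serum and received no other treatment. RNA came from duplicate aliquots of cells processed side by side, so each phenotype was represented by 1 clone, and any difference between these clones moves together with all 3 labels. No source says that the aliquots were separate cultures, so the p-values reflect how much duplicate aliquots varied, and that variation may be purely technical.

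Phorbol esters stand in for diacylglycerol, the lipid that phospholipase C releases when a T cell receptor or a G protein-coupled receptor is engaged. Diacylglycerol recruits proteins with a C1 domain, among them the protein kinase C enzymes and RasGRP1, an exchange factor that loads Ras with GTP and so starts the Raf, MEK and ERK kinase cascade. Adhesion works through integrins and other receptors that bind matrix, and through focal adhesion kinases and linker proteins that tie them to actin. Metastatic spread draws on adhesion, motility, survival and the breakdown or deposition of matrix.

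Values are linear MAS5 signals, scaled by the authors so that every array had a trimmed mean of 125. The median signal was 20.4 and 21.5 on the WT2 arrays, 17.0 and 17.8 on the C5 arrays and 15.8 and 15.9 on the V7 arrays. Log2 signals correlated across probe sets at 0.956 between the WT2 arrays, at 0.968 between the C5 arrays and at 0.876 to 0.890 between a WT2 and a C5 array. The ratio of the 3' to the 5' Gapdh control probe set, a sign of RNA integrity and labelling, was 1.51 and 1.77 in WT2 against 1.15 and 0.829 in C5. This ratio moved with the clone, and its part in the differences below was not tested. The corresponding actin ratio overlapped between the clones, at 1.83 and 2.04 in WT2 and 2.91 and 1.87 in C5. The lymphoma label was checked against T cell markers, of which 5 of 11 had a named, tested probe set. They were not alike in the clones: 3 were lower in C5 (Cd2, Cd247 and Cd5), Trat1 was higher and Cd3e missed the 2-fold limit. The median log2 change of the 5 markers was -3.58. Cd3e, a signalling chain of the T cell receptor complex, had signals of 1867 and 2149 in WT2 and of 1162 and 901 in C5 (log2 change -0.97, adjusted p = 0.000545 by limma). The mean signals of Cd2 (3.86) and Cd247 (1.16) in C5 and of Trat1 (3.78) in WT2 were near the floor of the array. At these markers the values go against the label, for C5 at Cd2 and Cd247 and for WT2 at Trat1. However, only probe sets that the authors had listed as different in a comparison of their own carried names. Markers that they did not list could not be seen, so these 5 cannot decide whether the label holds.

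C5 and WT2 differed broadly. Of the 27022 probe sets, 1509 were higher in C5 (5.58%) and 2015 were lower (7.46%), together 13.0%, at a limma adjusted p below 0.05 and at least a 2-fold difference. At an unadjusted p below 0.05 there were 9851. Over every probe set tested, the median log2 change was -0.07. Among the called probe sets the median difference was 2.95-fold, and 452 differed at least 8-fold, 166 of them higher and 286 lower in C5. Gene names could be given only to probe sets that the authors had listed as different in 1 of their own comparisons (V7 with WT2, or C5 with V7), so 1520 named genes were tested and 78.3% of them were called. Of these, 600 (39.5%) were higher in C5 and 590 (38.8%) lower, with a median log2 change of 0.77. These shares are the background against which each gene list below should be read. Because the authors chose the named probe sets on these same arrays, and both of their comparisons included V7, the counts of named genes are not independent evidence of a difference.

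**Figure D1:**
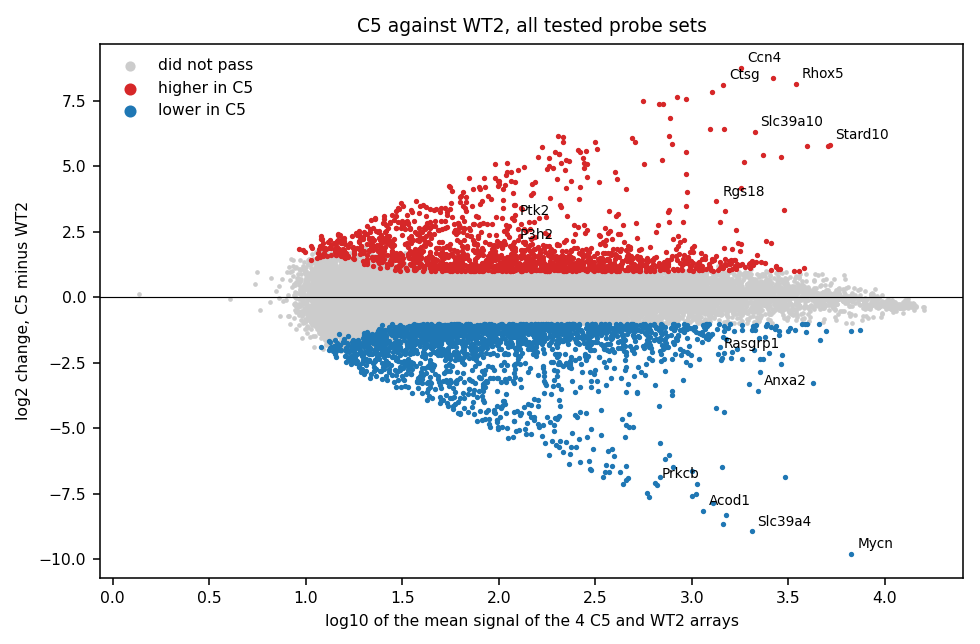
Log2 change between C5 and WT2 (vertical axis) against log10 of the mean signal of the 4 arrays (horizontal axis) for the 27022 tested probe sets. Red points, 1509, were higher in C5, blue points, 2015, were lower, and grey points did not pass; Mycn lies lowest at -9.78 and Ccn4 highest at 8.76.

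Many of the largest differences ran between a signal near the floor of the array in 1 clone and a strong signal in the other. Ccn4, also known as Wisp1, a secreted matricellular protein induced by Wnt signalling, had signals of 0.864 and 6.75 on the WT2 arrays and 3685 and 3515 on the C5 arrays (log2 change 8.76, SE 0.25, adjusted p = 1.06e-09 by limma). Csn3, which encodes the milk protein kappa-casein, read 3.66 and 23.2 in WT2 and 4561 and 5942 in C5 (log2 change 8.38, SE 0.38). Rhox5, an X-linked homeobox gene of the reproductive tract that is also active in many tumour lines, went from 16.5 and 22.7 to 6484 and 7332 (log2 change 8.14, SE 0.14, adjusted p = 3.16e-11). In each of these genes both C5 arrays lay far above both WT2 arrays. Ctsg, the granule protease cathepsin G, read 2.26 and 9.75 in WT2 and 2709 and 3101 in C5 (log2 change 8.13, SE 0.26). Hapln1, a link protein that fastens hyaluronan to proteoglycans, read 0.352 and 1.85 in WT2 and 1223 and 1007 in C5 (log2 change 7.52, SE 0.19). Slc39a10, a zinc importer, was well above the floor in both clones, with 48.2 and 46.6 in WT2 and 4379 and 3984 in C5 (log2 change 6.32, SE 0.12, adjusted p = 5.26e-11). The remaining genes among the 12 largest rises were Klhl4 (7.59), the T cell receptor adaptor Trat1 (7.38), the phosphodiesterase Pde3b (6.83), the lysosomal membrane protein Laptm4b (6.18), the poly(A) polymerase Papola (6.16) and the integrin ligand Edil3 (6.10). Stard10, a lipid transfer protein, had the largest rise in linear signal among named genes with unshared probes, from 151 and 197 in WT2 to 10121 and 10180.4 in C5 (log2 change 5.84, SE 0.13).

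The largest fall was that of Mycn, a Myc family transcription factor. Its signal was 13042 and 13710.0 in WT2 and 11.7 and 8.78 in C5 (log2 change -9.78, SE 0.28, adjusted p = 1.06e-09 by limma). Slc39a4, another zinc importer, read 4345 and 3800.5 in WT2 and 5.14 and 1.73 in C5 (log2 change -8.94, SE 0.27). Thus a pair of zinc importers of the same family differed in opposite directions between the clones. S100a6, a calcium-binding protein, went from 2998 and 2809 to 2.44 and 1.87 (log2 change -8.66, SE 0.33), and Acod1, the enzyme that makes itaconate, from 2411 and 2146 to 1.98 and 3.96 (log2 change -8.17, SE 0.27). Fyb, an adaptor between the T cell receptor and integrin activation, read 2156 and 2966 in WT2 and 3.27 and 9.16 in C5 (log2 change -7.87, SE 0.42). The other genes among the 12 largest falls were Gyg, which primes glycogen synthesis (-7.63), the mast cell protease Cpa3 (-7.57), the protein kinase A regulatory subunit Prkar2a (-7.48), Spsb4 (-7.18), the protein kinase C gene Prkcb (-7.10), Ms4a6b (-6.87) and the troponin gene Tnnt1 (-6.86). On every C5 array these genes read below 12 signal units, where the array is near its floor.

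**Figure D2:**
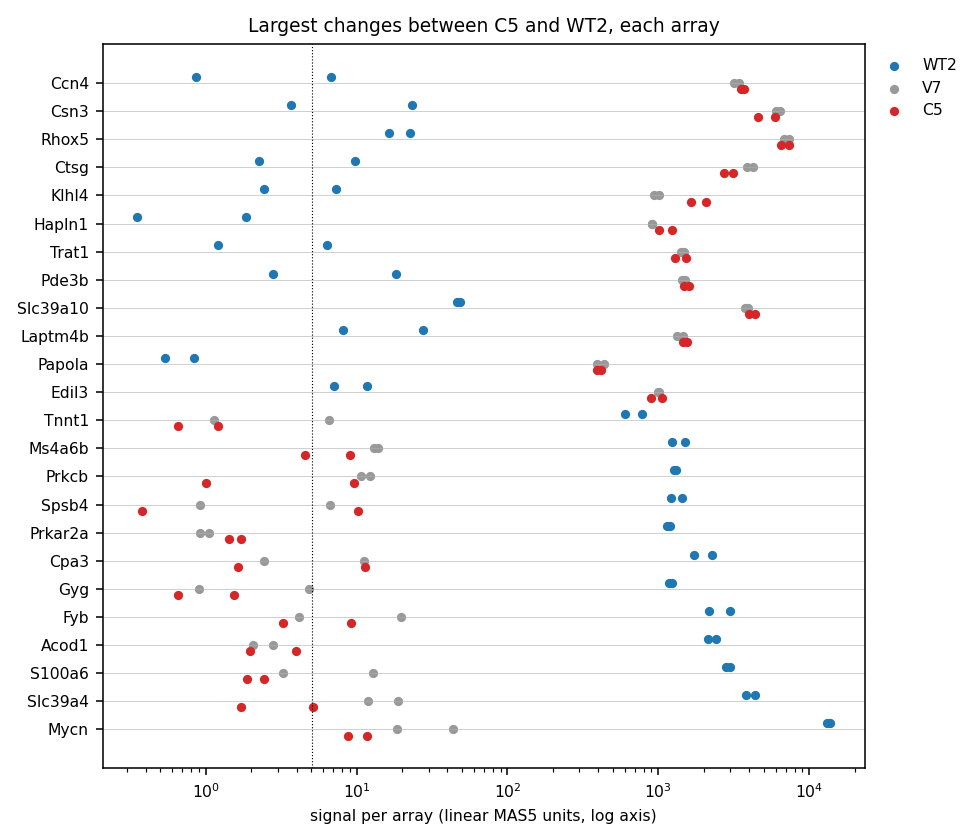
Signal on each array (horizontal log axis, linear MAS5 units) of the 12 genes with the largest rise and the 12 with the largest fall from WT2 to C5, with WT2 in blue, C5 in red and V7 in grey; the dotted line is the constant of 5.03 added before taking logs. For every gene shown the C5 and WT2 arrays lie apart, and the V7 arrays lie on the side of C5.

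Sizes of this kind depend on the constant of 5.03 that was added to each signal before the log. In 242 called falls the C5 mean, and in 176 called rises the WT2 mean, lay below that constant. With 1 added in its place the log2 change of Papola was 7.91 and that of Hapln1 9.14, while that of Slc39a10 was 6.43. Sizes also differed between probe sets of a gene: a further probe set of Papola rose by 2.50, and 1 of Prkar2a had a log2 change of -1.75 and did not pass. Of the 141 genes named by rule, 139 were called, 52 higher and 87 lower in C5, and 122 of them remained called whichever array was left out. In all 139 the C5 and WT2 arrays did not overlap, as was also true of 59.6% of all tested probe sets.

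Promoter sequences are shown for 4 genes whose differences the account returns to, 3 lower in C5 (Mycn, Prkcb, Rasgrp1) and 1 higher (Rhox5). Each is the stretch of 250 bases upstream of the annotated start in RefSeq (build GRCm38.p6), written 5' to 3' on the strand of the gene, with CG pairs, the sites of DNA methylation, in capitals. The Mycn window is chr12:12941837-12942086 on the minus strand, the Prkcb window chr7:122288875-122289124 on the plus strand, the Rasgrp1 window chr2:117342878-117343127 on the minus strand and the Rhox5 window chrX:37754358-37754607 on the plus strand.
Mycn: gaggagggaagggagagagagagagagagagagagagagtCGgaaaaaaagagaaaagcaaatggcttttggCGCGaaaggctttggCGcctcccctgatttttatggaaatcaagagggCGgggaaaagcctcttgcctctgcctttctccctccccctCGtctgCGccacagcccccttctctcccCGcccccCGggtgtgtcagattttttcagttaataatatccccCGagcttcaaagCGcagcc
Prkcb: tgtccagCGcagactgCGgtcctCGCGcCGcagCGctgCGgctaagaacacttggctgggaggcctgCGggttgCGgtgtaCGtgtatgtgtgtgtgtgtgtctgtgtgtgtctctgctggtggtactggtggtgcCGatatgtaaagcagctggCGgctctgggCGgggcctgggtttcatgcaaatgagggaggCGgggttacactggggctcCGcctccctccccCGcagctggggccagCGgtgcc
Rasgrp1: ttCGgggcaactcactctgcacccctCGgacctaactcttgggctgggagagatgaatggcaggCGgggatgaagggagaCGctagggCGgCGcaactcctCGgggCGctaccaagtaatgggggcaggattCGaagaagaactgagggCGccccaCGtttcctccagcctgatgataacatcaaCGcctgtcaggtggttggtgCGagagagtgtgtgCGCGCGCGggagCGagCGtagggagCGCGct
Rhox5: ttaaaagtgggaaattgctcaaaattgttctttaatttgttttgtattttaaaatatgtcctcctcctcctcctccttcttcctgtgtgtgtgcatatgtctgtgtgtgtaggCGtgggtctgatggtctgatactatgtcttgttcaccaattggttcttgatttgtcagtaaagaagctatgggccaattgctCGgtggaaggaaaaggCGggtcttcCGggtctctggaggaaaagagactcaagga
The windows held 11 CG pairs in Mycn, 17 in Prkcb, 21 in Rasgrp1 and 4 in Rhox5, against a median of 6 and quartiles of 2 and 16 over the 32851 promoter windows of the table. The AP-1 type motif TGANTCA and the E-box CACGTG, each searched on both strands, were not found in these 4 windows; they occur in 6.75% and 6.02% of all windows. Neither methylation nor binding was measured here.

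Most of the named genes that handle diacylglycerol and phorbol ester signals were lower in C5. Of 31 listed genes of this pathway, 11 had a named, tested probe set, and 8 were lower, none higher and 3 did not pass (median log2 change -2.23, against 0.77 over all named genes). Prkcb, the beta form of protein kinase C, read 1265 and 1312 in WT2 and 1.01 and 9.66 in C5 (log2 change -7.10, SE 0.36, adjusted p = 1.05e-07 by limma). The other named Prkcb probe set was also lower (-5.92), but a probe set carried a name only if the authors had listed it as different. Rasgrp1, the Ras exchange factor that binds phorbol ester directly, read 2221 and 2246 in WT2 and 504 and 478 in C5 (log2 change -2.17, SE 0.12, adjusted p = 2.41e-07). Rasgrp1 transcript was therefore lower but still well above the floor in C5, whereas Prkcb was near it. Prkcq, the theta form that acts at the T cell synapse, read 305 and 363 in WT2 and 53.8 and 83.6 in C5 (log2 change -2.23, SE 0.23), and Prkce, the epsilon form, read 164 and 176 in WT2 and 47.9 and 48.1 in C5 (log2 change -1.72, SE 0.23). Prkd3, a protein kinase D that protein kinase C activates, went from 207 and 192 to 13.1 and 2.41 (log2 change -4.14, SE 0.46). Enzymes that make or remove diacylglycerol were lower too. These were Plcg1 (-2.54) and Plcg2 (-5.20), the phospholipases C that release it, and Dgka (-3.13), the kinase that converts it to phosphatidic acid. Prkch, the eta form, read 1429 and 1505 in WT2 and 1132 and 983 in C5 and missed the 2-fold limit (log2 change -0.47, adjusted p = 0.0194). Rasgrp2 (log2 change 0.50) and Plcb1 (-0.54) did not pass either.

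Downstream of Ras, 5 of 30 listed genes of the Ras, Raf and ERK cascade were named and tested, with 4 lower and 1 higher (median -1.25). Braf, the kinase that phosphorylates MEK, read 64.3 and 53.5 in WT2 and 12 and 16.6 in C5 (log2 change -1.73, SE 0.37). Sos1, an exchange factor for Ras (-1.25), Rasa2, which switches Ras off (-1.48), and Nras itself (-1.01) were lower. Mras, a Ras relative, was higher, from 218 and 269 to 699.8 and 759 (log2 change 1.57, SE 0.15). The calls of Nras and Sos1 were each lost without 1 of the WT2 arrays and without 1 of the C5 arrays. The smallest log2 changes were -0.79 for Nras, without the first C5 array, and -0.83 for Sos1, without the second.

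Genes that ERK signalling is known to induce, or that feed back on it, were lower in C5 in all 5 of the 25 listed that were named and tested (median -3.25). Etv5, an ETS transcription factor, read 365 and 421 in WT2 and 9.85 and 13.8 in C5 (log2 change -4.57, SE 0.31). Dusp4, a phosphatase that inactivates ERK in the nucleus, read 88.8 and 83 in WT2 and 1.43 and 1.78 in C5 (log2 change -3.78, SE 0.56). Both are joined by the feedback inhibitors Spry1 and Spred2. Spry1 went from 94.6 and 129 to 15.3 and 2.19 (log2 change -3.25, SE 0.46). Spred2 went from 377 and 423 to 59.1 and 74 (log2 change -2.51, SE 0.21). Phlda1, a pleckstrin homology domain protein, went from 1189.7 and 1116 to 329 and 286 (log2 change -1.89, SE 0.13). In all 5 genes both C5 arrays lay below both WT2 arrays. The C5 and WT2 arrays also did not overlap in 59.6% of all tested probe sets, and 38.8% of all named genes were lower in C5. All cells had been kept without serum, so these are levels without added stimulation.

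Focal adhesion and cytoskeletal linker genes went in both directions, with 9 lower, 3 higher and 1 not passed of 13 named and tested out of 39 listed (median -1.53). The related tyrosine kinases Ptk2 and Ptk2b differed in opposite directions. Ptk2, focal adhesion kinase, read 25.2 and 22.3 in WT2 and 232 and 201 in C5 (log2 change 2.94, SE 0.20, adjusted p = 1.23e-06 by limma). Ptk2b, known as Pyk2, read 145 and 129 in WT2 and 53.1 and 36.7 in C5 (log2 change -1.53, SE 0.28, adjusted p = 0.00191). Among the actin partners, Evl, which speeds filament growth, went from 209 and 229.6 to 1.87 and 2.10 (log2 change -5.0, SE 0.45). Zyx, the focal adhesion protein zyxin, went from 241 and 172 to 25 and 15.3 (log2 change -3.08, SE 0.30). Lims1, part of the complex that ties integrins to actin (-1.80), and the myosin heavy chain Myh9 (-1.79) were lower as well. Rdx, which encodes the membrane linker radixin, was higher, from 1269.6 and 1019 to 3353 and 2286 (log2 change 1.28, SE 0.17). The parvin gene Parvg had a log2 change of 0.89 and did not pass.

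The actin genes need care because their sequences are alike. Acta2, smooth muscle actin, read 5589 and 6386 in WT2 and 52.5 and 41.3 in C5 (log2 change -6.86, SE 0.23), on a probe set whose probes are shared with other transcripts. Actg1, also with shared probes, read 9303 and 9716 in WT2 and 4006 and 3739 in C5 (log2 change -1.30, SE 0.10). The probe set named Actb was higher in C5, from 84.3 and 83.1 to 282 and 323 (log2 change 1.79, SE 0.17). Both beta-actin control probe sets of the array, which were far brighter, went the other way. The 3' control read 15039 and 16207 in WT2 and 8509 and 8599 in C5. The 5' control read 8234 and 7956 in WT2 and 2920 and 4610 in C5. The beta-actin probe sets thus disagreed in direction, with the bright controls lower in C5 and the dim named probe set higher. The controls were left out of the tests.

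Of 37 integrins and adhesion receptors listed, 8 were named and tested, with 4 lower, 2 higher and 2 not passed (median -0.62). Cd2, a T cell adhesion receptor, read 887 and 795 in WT2 and 6.79 and 0.934 in C5 (log2 change -6.65, SE 0.42). Cd47, an integrin-associated protein, read 1359 and 1549 in WT2 and 296 and 321 in C5 (log2 change -2.22, SE 0.15), and the tetraspanin Cd81 was also lower (-1.27). Cd44, a hyaluronan receptor, read 163 and 167 in WT2 and 60.6 and 86.1 in C5 (log2 change -1.14, SE 0.23, adjusted p = 0.00404 by limma), and its log2 change of -0.90 without the first C5 array missed the 2-fold limit. The receptors that were higher in C5 were Cd96, which binds nectin-like ligands, and Itgae, the alpha E integrin chain. Cd96 rose from 405 and 572 to 2895 and 2888 (log2 change 2.57, SE 0.15) and Itgae from 12 and 2.80 to 48 and 63 (log2 change 2.38, SE 0.45). Itga6, the alpha 6 laminin-binding chain, overlapped between the clones, with 150.0 and 136 in WT2 and 123 and 144 in C5 (log2 change -0.10). A dimmer Itga6 probe set did not overlap, with 94.9 and 75.9 in WT2 and 45.1 and 46.6 in C5 (log2 change -0.82, adjusted p = 0.0168 by limma), and missed the 2-fold limit.

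Matrix proteins, matrix enzymes and their inhibitors leaned the other way. Of 38 listed genes, 9 were named and tested, and 7 were higher in C5, none lower and 2 not passed (median 1.59, against 0.77 over all named genes). Of all named genes 78.3% were called, with 39.5% higher and 38.8% lower. Besides Ccn4 and Hapln1, whose signals are given above, P3h2, also known as Leprel1, which hydroxylates prolines of collagen, read 40.8 and 47.2 in WT2 and 194 and 193 in C5 (log2 change 2.02, SE 0.29). The metalloproteases Adamts1 and Adam9 rose by log2 1.76 and 1.59. Adamts1, which cuts proteoglycans, read 60.6 and 68.5 in WT2 and 257 and 207 in C5. Ctsl, the protease cathepsin L, went from 295 and 329.8 to 691 and 775 (log2 change 1.22, SE 0.14). The metalloprotease inhibitor Timp2 was higher as well (1.12), but at 0.90 and 0.91 it missed the 2-fold limit without the second WT2 array or the second C5 array. Spp1, osteopontin, read 231 and 155 in WT2 and 95.7 and 113 in C5 and did not pass (log2 change -0.83), and neither did the laminin chain Lamb1 (0.89). Edil3, a secreted integrin ligand outside the list, was among the largest rises, from 7.10 and 11.7 to 1058 and 888.

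T cell receptor components and signalling proteins were mostly lower in C5. Of 34 listed genes 12 were named and tested, with 9 lower, 2 higher and 1 not passed (median -2.48). Cd247, the zeta chain that carries the signal of the receptor, read 574 and 618 in WT2 and 1.30 and 1.03 in C5 (log2 change -6.60, SE 0.40, adjusted p = 4.65e-07 by limma). The co-receptor Cd5 went from 677 and 535 to 52.5 and 39.8 (log2 change -3.58, SE 0.22). Its relative Cd6 went from 63.9 and 42.6 to 2.36 and 2.35 (log2 change -2.96, SE 0.62), and without the first WT2 array it was too dim to be tested. Lower levels were also found for the Src family kinase Fyn (-1.70), for Lcp2 (-1.27) and Grap2 (-2.34), adaptors that assemble the signalling complex, for the co-stimulatory receptor Cd27 (-2.63) and for the transcription factor Nfatc1 (-2.67). Trat1, an adaptor that associates with the receptor, went strongly the other way, from 6.34 and 1.21 to 1520.5 and 1293 (log2 change 7.38, SE 0.24, adjusted p = 3.07e-09). Ubash3a, a negative regulator of the receptor, was higher too (1.24). The call of Nfatc1 was lost without the second C5 array, where its log2 change was -1.86, and that of Ubash3a without the first WT2 array, where its log2 change of 0.99 missed the 2-fold limit.

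Early T cell and Notch pathway genes comprised 6 named and tested of 26 listed, with 4 lower and 2 higher (median -1.61). Apart from Mycn, Satb1, a chromatin organiser of thymocytes, read 275 and 317 in WT2 and 6.22 and 8.90 in C5 (log2 change -4.59, SE 0.29). Gata3, a transcription factor of the T lineage, went from 802 and 656 to 325 and 299 (log2 change -1.20, SE 0.15). The Notch target Hes1 was lower (-2.01), but its call was lost without the first WT2 array or the first C5 array. Dntt, the terminal transferase of immature lymphocytes, was higher, from 12 and 28.4 to 440.2 and 409 (log2 change 4.17, SE 0.26, adjusted p = 5.55e-07 by limma), and so was Ikzf3, an Ikaros family factor, from 423 and 613 to 1454 and 1298 (log2 change 1.42, SE 0.17).

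Cytokine genes and receptors were split, with 4 higher, 5 lower and 3 not passed of 12 named and tested out of 43 listed (median 0.66). Il7r, the receptor chain for the survival cytokine interleukin 7, rose from 76.9 and 52.2 to 775 and 586 (log2 change 3.31, SE 0.20). Il27ra, part of the interleukin 27 receptor, rose from 6.59 and 12.8 to 317 and 279.5 (log2 change 4.40, SE 0.25), and the ligand gene Tgfb3 also rose (2.66). Tgfbr2, the receptor that binds TGF-beta ligands, was lower, from 311 and 310.1 to 85.3 and 87.1 (log2 change -1.79, SE 0.19). Ifngr1, the ligand-binding chain of the interferon gamma receptor, read 1199 and 1346 in WT2 and 195 and 157 in C5 (log2 change -2.82, SE 0.16). Tnfrsf1b (-2.62), a receptor for tumour necrosis factor, and the shared receptor chain Il6st (-1.67) were lower. Csf2, the cytokine GM-CSF, was called lower (log2 change -1.79, SE 0.50, adjusted p = 0.0204) but missed the call under 5 alternatives. Of 2 chemokine receptors tested out of 22 listed chemokine genes, Ccr7, which guides T cells to lymph nodes, read 51.7 and 45.2 in WT2 and 0.701 and 1.57 in C5 (log2 change -3.12, SE 0.68, adjusted p = 0.00564), and Cxcr6 did not pass (-0.59). The call of Ccr7 was lost without the second WT2 array and with 1 added before the log, and without the first WT2 array its mean signal was too low to be tested.

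Signalling through G proteins and cAMP showed opposite differences within gene families. Of 36 listed genes 12 were named and tested, with 4 higher, 7 lower and 1 not passed (median -1.77). The type II regulatory subunits of protein kinase A differed in opposite directions. Prkar2a read 1147 and 1194 in WT2 and 1.71 and 1.42 in C5 (log2 change -7.48, SE 0.31), and Prkar2b read 38 and 39.1 in WT2 and 159 and 177 in C5 (log2 change 1.99, SE 0.23). Among the enzymes that degrade cAMP, Pde3b rose from 18.3 and 2.79 to 1589.6 and 1487 (log2 change 6.83, SE 0.36) and Pde7a was lower, from 153 and 221 to 40.3 and 34.8 (log2 change -2.15, SE 0.26). Among the proteins that switch G protein alpha subunits off, Rgs18 rose from 157 and 231 to 2647 and 2320.1 (log2 change 3.67, SE 0.18, adjusted p = 9.69e-08 by limma). Rgs10 went from 1199 and 1149 to 99.5 and 126 (log2 change -3.33, SE 0.17), and Rgs2 did not pass (-0.43). Adcy7, which makes cAMP (-2.01), the prostaglandin receptor gene Ptger4 (-1.69), the G protein subunit gene Gng2 (-1.85) and the lipid phosphatase gene Plpp2 (-3.23) were lower, and the sphingosine phosphate phosphatase gene Sgpp1 was higher (1.12).

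Coro1a, an actin-binding protein of leukocytes and named, like Cytip and Anxa2, for the size of its fall in signal, went from 3569 and 4211 to 793 and 731 (log2 change -2.34, SE 0.13). Cytip, which binds an exchange factor that acts on integrins, went from 3446 and 4076 to 818 and 664 (log2 change -2.34, SE 0.15), and Anxa2, a membrane-binding annexin, from 4544 and 3606 to 329 and 338 (log2 change -3.58, SE 0.14).

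**Figure D3:**
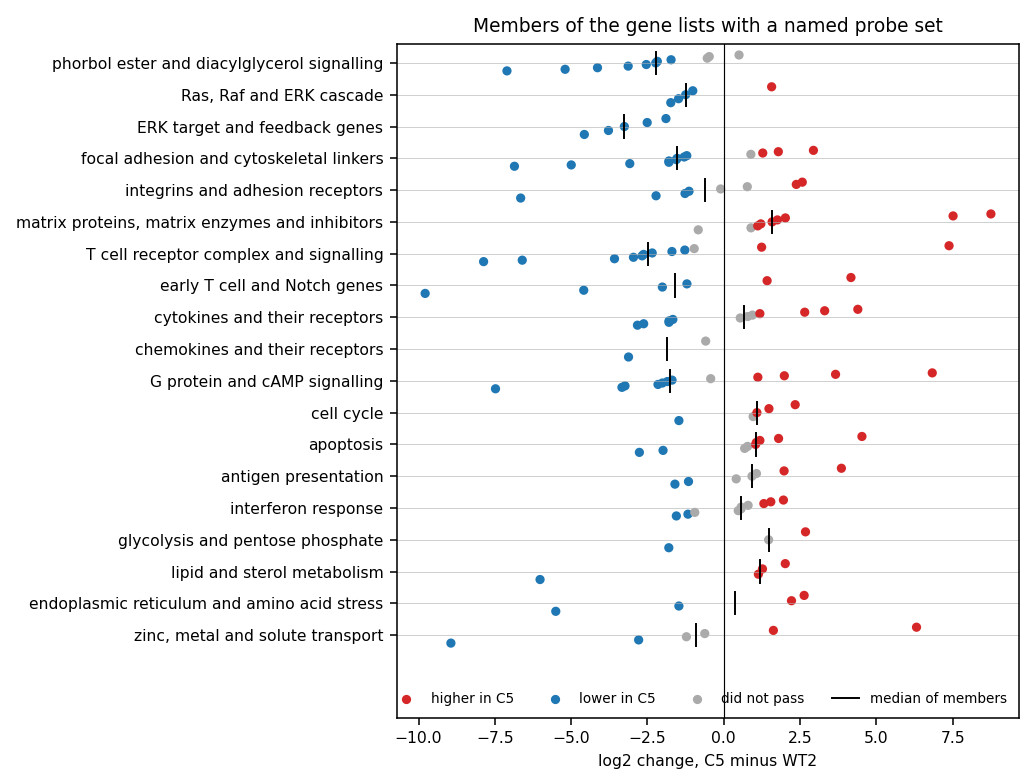
Log2 change between C5 and WT2 (horizontal axis) of each named, tested member of 19 gene lists (vertical axis), red where higher in C5, blue where lower and grey where the gene did not pass; the black bar is the median of the members. The phorbol ester and ERK target lists hold no red point and the matrix list no blue one.

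Genes of survival and the cell cycle went in both directions. Of 9 apoptosis genes tested out of 33 listed, 5 were higher, 2 lower and 2 not passed (median 1.05). The anti-apoptotic Bcl2a1a, measured with probes shared with its close copies, read 30.9 and 27.3 in WT2 and 679 and 900.3 in C5 (log2 change 4.53, SE 0.18). Xiap, a caspase inhibitor, was higher (1.05), as were the pro-apoptotic genes Bad (1.80) and Bid (1.07) and the death receptor gene Fas (1.19). Cflar, which blocks signalling from death receptors, was lower, from 556 and 543 to 87.1 and 67.5 (log2 change -2.76, SE 0.26), and so was Casp4 (-1.99). Members that promote death and members that prevent it were thus found in both directions. In the cell cycle list 5 of 33 genes were tested, with 3 higher, 1 lower and 1 not passed (median 1.09). Cdkn1a, the inhibitor p21, rose from 328 and 230.4 to 1281 and 1561 (log2 change 2.34, SE 0.17), and Cdkn2c, the inhibitor p18, went from 1151 and 1343 to 419 and 476 (log2 change -1.47, SE 0.14). The mitotic transcription factor Foxm1 (1.48) and E2f2 (1.09) were higher, and the cyclin gene Ccne1 did not pass (0.96). Without 1 of the arrays the calls of Xiap, Bid and E2f2 fell just short of 2-fold, at log2 changes between 0.88 and 1.00.

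Antigen presentation genes were split, with 2 higher, 2 lower and 3 not passed of 7 tested out of 20 listed (median 0.93). H2-Eb1, a class II chain, read 14.3 and 1.78 in WT2 and 121 and 214 in C5 (log2 change 3.86, SE 0.42). Psmb10, an immunoproteasome subunit, rose (1.98), whereas the non-classical class I gene H2-T23 (-1.60) and Cd1d1 (-1.15), which presents lipids, were lower. Interferon response genes showed no common direction, with 3 higher, 2 lower and 5 not passed of 10 tested out of 32 listed (median 0.57). Gbp3, a guanylate-binding protein (1.96), Isg20 (1.54) and Usp18 (1.32) were higher, and the RNA sensors Eif2ak2 (-1.55) and Ddx58 (-1.17) were lower.

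Few metabolic and transport genes carried names. In zinc, metal and solute transport 6 of 22 were tested, with 2 higher, 2 lower and 2 not passed (median -0.92). Beside the importers Slc39a4 and Slc39a10, the zinc exporter Slc30a1 was lower, from 136 and 194 to 40.3 and 7.93 (log2 change -2.79, SE 0.49). The metallothionein genes Mt1 (log2 change -1.22) and Mt2 (-0.62), which bind zinc, did not pass. Another Mt1 probe set, with shared probes, read 13248 and 13638 in WT2 and 9334 and 9249 in C5. Its log2 change of -0.53 (adjusted p = 0.000702 by limma) missed the 2-fold limit. Slc16a1, a lactate transporter, rose from 1108 and 1011 to 3387 and 3179.8 (log2 change 1.63, SE 0.11). Of 3 glycolysis genes tested, the glucose transporter gene Slc2a3 was higher, from 8.81 and 6.94 to 70 and 85.8 (log2 change 2.68, SE 0.29). Its other named probe sets rose by log2 2.25, 3.35 and 4.17. The rise of 3.35 was on its brightest named probe set, which has shared probes and read 483 and 584 in WT2 and 5564 and 5329 in C5. The phosphofructokinase gene Pfkm was lower (-1.80) and Aldoc did not pass (1.47). All 4 tested genes of lipid metabolism were called, beside 78.3% of all named genes, so this count alone sets the list little apart. Apod, a lipid-carrying apolipoprotein, went from 1451 and 1555 to 15.3 and 21.6 (log2 change -6.02, SE 0.22), and the fatty acid carrier Fabp4 (2.02), the sterol exporter Abcg1 (1.27) and Cpt1a (1.14), which admits fatty acids to mitochondria, were higher. In the stress list the chaperone gene Dnajb9 (-5.50) and Mthfd2 (-1.47), a mitochondrial folate enzyme, were lower, and Atf6 (2.22), a sensor of unfolded proteins, and Nqo1 (2.64), an antioxidant enzyme, were higher. The other named Atf6 probe set had a log2 change of 0.67 and did not pass.

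Markers of other cell types were scarce among the named probe sets. No B cell or erythroid marker of the 8 and 7 listed was named. The myeloid list had Ctsg alone of 12, higher in C5 as described. Of 9 mast cell and basophil markers, Cpa3 was lower and Mcpt8 higher, the latter from 23.8 and 3.96 to 36.7 and 51.9 (log2 change 1.60, SE 0.50, adjusted p = 0.0345 by limma). Mcpt8 was called in 3 of the 6 fits that left out 1 array, and its call was lost without the second WT2 array (log2 change 0.76, adjusted p = 0.177) and without either C5 array (adjusted p = 0.0922 and 0.213). Gzma, 1 of 9 natural killer cell markers, rose from 25 and 38.3 to 249 and 334 (log2 change 3.02, SE 0.25). Among 9 fibroblast markers Acta2 was lower and Pdgfra higher, the latter from 1.88 and 2.70 to 47.2 and 48.2 (log2 change 2.85, SE 0.35). Scel, 1 of 7 epithelial markers, was lower (-4.21), and Pecam1, 1 of 7 endothelial markers, did not pass (0.77). In bulk RNA, fewer cells that carry a transcript and less of it per cell cannot be told apart.

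V7 shares the resistance and adherence labels of C5 and differs from it in the metastasis label. The changes of C5 and of V7 from WT2 use the same WT2 arrays, so each is given by its own values, and the test of whether they differ is the direct comparison of C5 with V7. Mycn changed by log2 -9.78 in C5 and -8.62 in V7, Rhox5 by 8.14 and 8.17, Rasgrp1 by -2.17 and -2.23, Prkcb by -7.10 and -6.29, and Ptk2 by 2.94 and 2.70. Directly between C5 and V7, 27 of the 27022 probe sets were called by limma (0.0999%), 8 higher (0.0296%) and 19 lower (0.0703%) in C5, with 1756 at an unadjusted p below 0.05. Of the 27, 20 were also called between C5 and WT2 and 7 were not. This count depended on single arrays and ran from 5, without either V7 array, to 70, without either WT2 array.

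Rgs18, the G protein regulator described above, was higher in C5 than in both other clones. Its signals were 157 and 231 in WT2, 153 and 169.9 in V7 and 2647 and 2320.1 in C5, so that the V7 and WT2 arrays lay together and the C5 arrays stood apart (C5 minus V7 3.90, SE 0.18, adjusted p = 2.05e-06 by limma). A further Rgs18 probe set read 129 and 164 in WT2, 109 and 112 in V7 and 1899 and 1516 in C5. P3h2 differed in all 3 clones, with 40.8 and 47.2 in WT2, 3.58 and 1.96 in V7 and 194 and 193 in C5 (C5 minus V7 4.68, SE 0.29, adjusted p = 3.28e-05). Relative to WT2 it was higher in C5 and lower in V7. These 2 genes stayed called between C5 and V7 whichever single array was left out. Prkch, the protein kinase C form that missed the 2-fold limit against WT2, read 504 and 455 in V7 and was higher in C5 than there (1.13, adjusted p = 0.00595). Itga6 read 309 and 358 in V7 and was lower in C5 (C5 minus V7 -1.29, adjusted p = 0.0216).

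Other genes went further from WT2 in C5 than in V7, or less far. Phlda1 read 693 and 707 in V7, between WT2 and C5, and was lower in C5 than in V7 (-1.18, adjusted p = 0.00595 by limma). Apod (-1.91), Scel (-2.21), Ypel2 (-1.35) and Cnp (-1.34) were likewise lower in C5 than in V7, and each was also lower in C5 than in WT2. Dntt and Fabp4 were higher than in WT2 in both clones but less so in C5. Dntt read 1635 and 1389.9 in V7 (C5 minus V7 -1.82) and Fabp4 read 207 and 290.1 (-1.76). A dimmer unshared probe set of each gene was lower in C5 than in V7 but not called. Its C5 minus V7 was -1.42 for Dntt (adjusted p = 0.101 by limma) and -1.73 for Fabp4 (adjusted p = 0.0834). A Dntt probe set with shared probes was called (-1.81). Apart from Rgs18 and P3h2, each gene named here as different between C5 and V7 lost that call when 1 or more of the C5 or V7 arrays was left out.

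**Figure D4:**
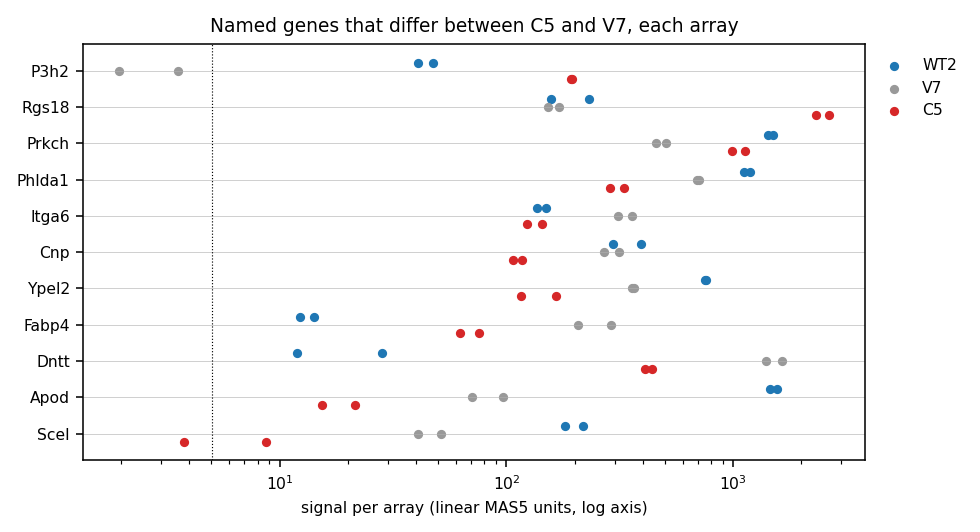
Signal on each array (horizontal log axis, linear MAS5 units) of the 11 named genes that were called between C5 and V7, with WT2 in blue, V7 in grey and C5 in red; the dotted line is the constant of 5.03. For Rgs18 the WT2 and V7 arrays lie together and the C5 arrays far above them, and P3h2 shows 3 separate levels.

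Probe sets without a name made up 24581 of those tested. Of these, 532 were higher and 1053 lower in C5, together 6.45%. Among them the largest rise was 3.36 and the largest fall -4.67 on the log2 scale. Of 483 probe sets that carried a provisional sequence entry, 205 were higher and 176 lower. Of the 30 tested probe sets that the authors had listed only for C5 with V7, 5 had a higher and 12 a lower level in C5 compared with WT2.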

How the data were processed

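Biotin-labelled RNA from the clones WT2, V7 and C5 was hybridised to Affymetrix mouse arrays, 2 aliquots per clone. The deposited value table gives, for each array, the linear signal intensity of every probe set; MAS5 is named in the submitters' processing notes, without a version. Every array had the same trimmed mean of 125 (2% trimmed). The authors' deposited lists also hold a fold ratio per probe set; they were used for gene names only. Of 2451 listed probe sets, 1958 had a single gene name (1525 genes), and 457 received a symbol through RefSeq accessions (GRCm38.p6); further symbols were read from deposited names by hand, some after values had been seen.

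Signals were analysed as log2(signal + 5.03), where the constant is their 25th percentile, for probe sets with a mean above the 40th percentile (11.7). A fold change on this scale understates the change of dim probe sets. A model with 1 mean per clone was fitted to all 6 arrays with limma 3.58.1 (R 4.3.3; lmFit, then eBayes with a variance trend; 3 residual and 8.47 prior degrees of freedom), and p-values were adjusted by Benjamini-Hochberg over all 27022 probe sets. Calls required an adjusted p below 0.05 and at least a 2-fold difference, two-sided. A probe set with unshared probes, then the brightest, stood for a gene. The fit was also run on simulated arrays with normal noise, with known changes planted in C5 among the brighter probe sets only. The simulated clones were otherwise alike, unlike the real ones, and recovery among dim probe sets was not checked. With 2 arrays per clone, the number of arrays limits precision, and no detection calls were used. Same-numbered aliquots of different clones did not deviate together (correlations -0.04 to 0.04).

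Each gene was read from its brightest named probe set, with shared probes used only where no other named one was tested. Probe sets of the same genes that the authors had not listed carried no name and could not be set beside these. Among genes read without shared probes, the rule named the 12 largest rises and falls, the 10 largest signal differences each way, up to 8 called members per list (shared probes allowed), genes called for both C5 against WT2 and C5 against V7, and genes tied to the clones in earlier results, 141 in all. The members, lists and rules were chosen with earlier results of these data known. Alternatives changed the added constant, the filter, the normalization, the variance trend, the arrays fitted, the probe set rule and the thresholds. Summaries and figures used Python 3.11.15, pandas 2.3.3, numpy 2.4.6 and matplotlib 3.10.9. Array control probe sets (64) were left out of all tests. The values of 1 gene list and of 1 further gene are not reported here.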

Additional observations from a re-analysis of the deposited data

Results flagged for a closer look

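For 11 of the genes named by rule the change from WT2 differed between C5 and V7, as tested by C5 minus V7 in limma. On the log2 scale C5 was higher than V7 for P3h2 (4.68), Rgs18 (3.90) and Prkch (1.13). It was lower for Scel (-2.21), Apod (-1.91), Dntt (-1.82), Fabp4 (-1.76), Ypel2 (-1.35), Cnp (-1.34), Itga6 (-1.29) and Phlda1 (-1.18). P3h2 was called under all 13 alternatives and Rgs18 under 12 of 13, missing only without the variance trend. The other 9 were called under 5 (Dntt, Fabp4) to 10 (Apod) of the 13, none changed sign, and these alternatives for single genes were added after the data were seen. The Gapdh 3' to 5' ratio, 0.960 and 0.887 in V7 against 1.15 and 0.829 in C5, overlapped between these clones.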

How the results depend on the processing

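The counts of probe sets higher (1509) and lower (2015) in C5 stayed within 1.5 times of these values under every alternative except the thresholds themselves. Without a fold limit they were 3296 and 3649, and at 4-fold 435 and 668. Leaving out single arrays gave 1214 to 1965 higher and 1649 to 1958 lower. Quantile normalization gave 1805 higher and 1748 lower and moved the median log2 change from -0.07 to 0.02. Same-numbered aliquots share only a number; with the replicate block there were 1487 higher and 1950 lower. No called probe set that was tested again changed sign under any of the alternatives to the fit. The count for C5 against V7, 27, was 55 with the median signal added before the log, 4 without a variance trend and 15 with the replicate block. It ran from 5 to 70 when single arrays were left out. Of 2014 alternative values for the 141 named genes, 1981 kept their side of the thresholds and 33 lost the call with the same sign. The genes that lost it were Abcg1, Bid, Ccr7, Cd1d1, Cd44, Cpt1a, Csf2, E2f2, Eif2ak2, Hes1, Nfatc1, Nras, Sos1, Timp2, Tmed2 and Xiap, and the cause was not tested. Among list members outside the naming rule, Ubash3a lost its call without the first WT2 array, and Mcpt8 lost it with no filter on low signals, without the variance trend, with the 4 WT2 and C5 arrays alone and in 3 of the fits with 1 array left out. The 1 called chemokine gene, Ccr7, was not called with 1 added or without the second WT2 array. With the stricter filter on low signals, and without the first WT2 array, it was too dim to be tested. Signals near the floor of the array limit the sizes given, not only the calls.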

Other observations

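A probe set assigned to murine leukemia retrovirus read 2831 and 2828 in WT2, 21.3 and 32.9 in C5 and 11.6 and 23.5 in V7, so both resistant clones were far below WT2 (log2 change in C5 -6.49, SE 0.27). The gene deposited as Killer cell lectin-like receptor, subfamily A, member 7, an inhibitory receptor of natural killer cells, was chosen after its values were seen. Its probe set, with probes shared in its family, read 79.7 and 77.6 in WT2, 203 and 189 in V7 and 735 and 764 in C5. It was higher in C5 than in WT2 (3.17, adjusted p = 9.73e-08 by limma) and than in V7 (1.91, adjusted p = 0.000559).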
